A study of Aspergillus nidulans with 32 samples.

Results

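Of 10681 genes of the filamentous fungus Aspergillus nidulans, 61 were at least 3-fold higher in used medium than in fresh medium and in a salt solution, in mycelium that had not been starved before. The rule took TMM-scaled CPM (each gene's counts relative to its library's scaled total), averaged the 4 libraries of a group and added 0.5 CPM. It asked that naive used-medium cultures reach at least 3 times the value of naive salt and of naive refed cultures, and a value of at least 5. It also asked that starved cultures stay under 4 times the value of grown cultures. All 61 genes were among the 10022 that passed the count filter and were tested. These 61 were chosen on the grown, starved, naive refed, naive salt and naive used-medium groups, so values in those groups are given as a description. Tests compared pre-starved groups only, which the rule did not use. The spread of each gene between cultures was estimated from all groups together. The groups of the rule thus entered the tests through the spread, and the tests were not fully independent of the choice.

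Polyadenylated RNA of mycelium shaken at 37 °C was sequenced in 32 libraries from 16 cultures, with 2 cultures (A and B) in each of 8 groups and 2 technical libraries per culture. Pre-starved cultures grew for 20 h in glucose and nitrate minimal medium, spent 4 h in a salt solution lacking any source of carbon or nitrogen, and returned to fresh minimal medium for 2 h. They were then moved for 1 h into used medium (pre-starved used), moved for 1 h into salt solution (pre-starved salt) or harvested at once (pre-starved refed). Naive cultures grew for 24 h, spent 2 h in fresh minimal medium and had the same last step (naive used, naive salt, naive refed). Used medium had been depleted by 48 h of earlier growth of the fungus, and its composition was not measured in the files used here. Starved cultures were harvested after 20 h of growth and 4 h in salt solution, and grown cultures after 24 h of growth. Every pre-starved group thus grew for 20 h and every naive group for 24 h, so growth time and past starvation cannot be told apart. Refed cultures had no last transfer and were harvested 1 h earlier than used-medium and salt cultures. No group spent that hour in fresh medium, so over refed medium the last medium cannot be told apart from transfer and time. Per the labels, the strains were the wild type FGSC#4 and RKIS42.17, which carries alcA(p)-sGFP-aflR, an aflR fusion placed by its name under the alcA promoter, and which strain gave which sample is not stated. Culture totals ran between 39526910 and 66121549 counts. In whole mycelium a change within each cell and a change in the mix of cells cannot be told apart.

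When glucose runs out, A. nidulans lifts carbon catabolite repression, and genes for other carbon sources can then be switched on by their own activators and inducers. The alcohol regulon is a textbook case: the activator encoded by alcR, in the presence of an inducer such as ethanol or acetaldehyde, switches on alcA (alcohol dehydrogenase I) and aldA (aldehyde dehydrogenase). Old medium differs from plain salt solution in that the fungus has released metabolites, enzymes and acids or bases into it, and penicillin synthesis is known to respond to carbon source and pH. Symbols of the alcohol and penicillin genes, and of other listed genes without a symbol in RefSeq, are background knowledge of the community gene numbering. The names treA, mdr1, zrfC, admA and aspf2 are symbols of the RefSeq annotation of assembly ASM1142v1.

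Naive used culture B stood apart from culture A in part of the members. For 11 of the 61 genes, culture A was under 2-fold of the naive refed mean, at 1.81-fold or less, while culture B was 8.11 to 53.7 times culture A. In the other 50 genes culture A was at least 3.11-fold above the naive refed mean. This split was made after naive values were seen, and it used no pre-starved culture. Without culture B the rule gave 52 genes, 43 of them among the 61, and without culture A it gave 61 genes, 56 of them shared. The 11 genes took 4.10% of all counts in naive used culture B, 0.295% in culture A and between 0.237% and 0.924% in the 14 cultures of the other groups.

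**Figure D1:**
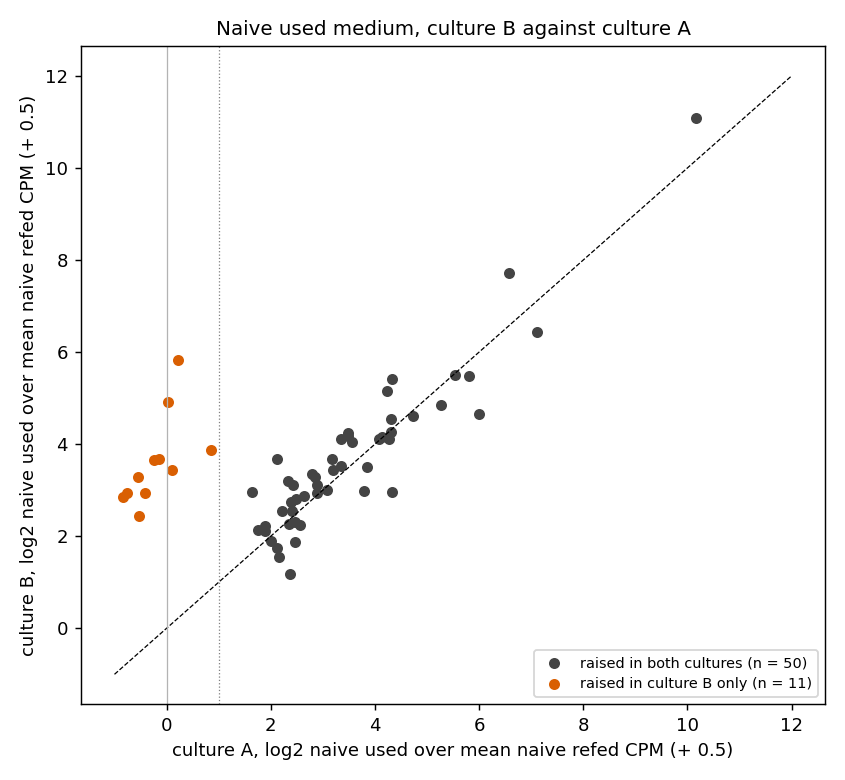
Naive used culture A (horizontal) and culture B (vertical) for the 61 genes, each as log2 over the naive refed mean (CPM plus 0.5). The 11 genes of culture B are drawn apart from the other 50, and the line marks equality of the cultures. By CPM alone, culture B was at least 8.11 times culture A in the 11 genes, and all but 1 of the other 50 lay within 3-fold of equality.

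In pre-starved cultures, 50 of the 61 genes rose in used medium over refed medium and 0 fell by edgeR, with 11 not called. Of all tested genes, 39.9% were called higher in that comparison and 37.1% lower. The same 50 of 61 rose in used medium over salt, again with 0 lower, where 9.02% of all tested genes were called higher and 8% lower. For all 61 genes, part of the spread estimate came from the groups that the rule had used. For the other 11 genes these included the naive used cultures that had set them apart. With only the 3 pre-starved groups fitted, 49 of the 61 genes rose over refed medium and 42 over salt. That fit also had fewer cultures for estimating the spread. The 50 genes called in both comparisons were exactly the 50 that had been high in both naive used cultures. Their median log2 change was 3.21 over refed medium (range 1.06 to 11.53, leaving aside AN10431 with 1 count in refed cultures), against 0.07 over all tested genes, and 2.90 over salt (range 0.97 to 8.75), against -0.05. Both comparisons share the pre-starved used cultures. In 49 of the 50 genes both pre-starved used cultures lay above both refed cultures, the exception being AN7857, and in 50 of 50 they lay above both salt cultures. No member was lower in either comparison at an unadjusted p of 0.05, and DESeq2 and limma voom also called 0 lower. The order of used-medium cultures above the others held in 45.1% and 25.0% of all tested genes. With naive used culture B left out of the rule and of the fit, 50 of the 52 genes were called higher over refed medium and 48 over salt.

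**Figure D2:**
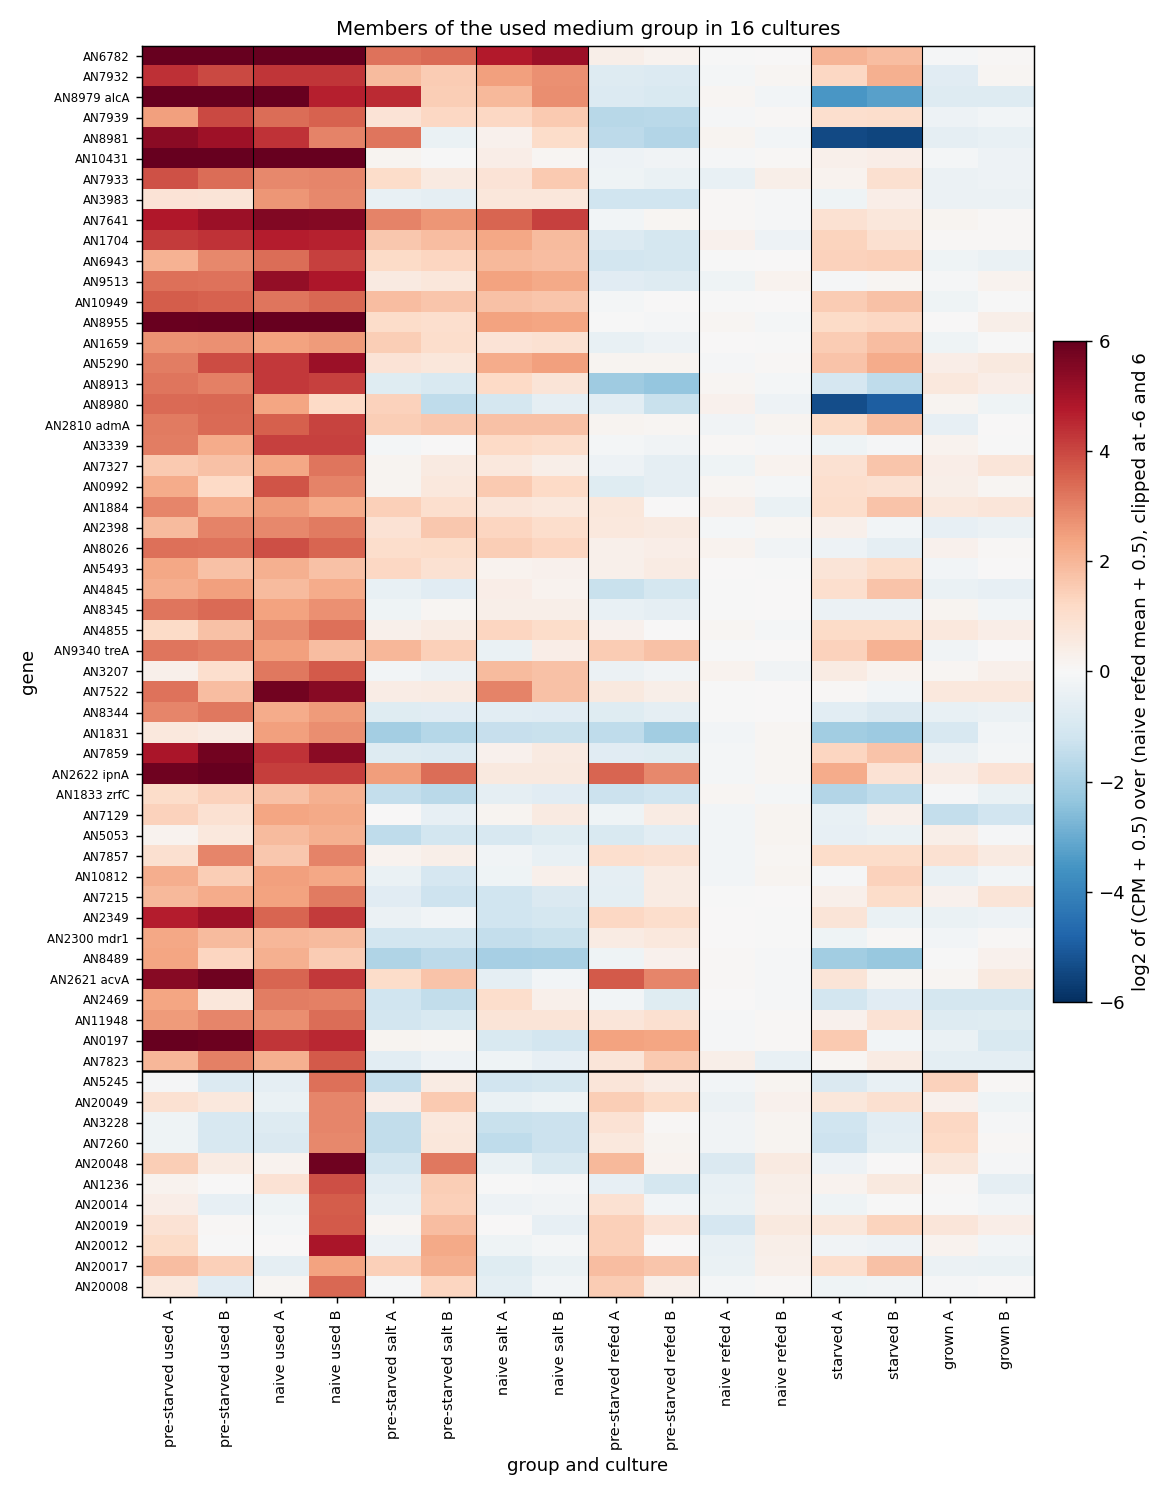
Log2 of each culture's value over the naive refed mean for the 61 genes (CPM plus 0.5, colours end at 6 in either direction), with 16 cultures as columns and the 11 culture B genes below the black line. Above the line both naive used columns are high. The pre-starved used columns are high in most genes but near the naive refed mean in some, such as AN5053 (11.4 and 15.3 CPM against 9.66 CPM). Below the line naive used culture B stands out.

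Salt alone split the 50 genes. In pre-starved cultures 25 rose in salt over refed medium, 10 fell and 15 were not called, beside 40.2% of all tested genes called higher and 36.4% lower. Their median log2 change was 0.75 (range -2.75 to 4.75). With limma voom on the 32 libraries the number that rose was 15, and with scaling by library totals 6 members fell. Totals scaling shifted the typical gene by 0.77 (median, log2) in this comparison, by 0.60 for used over refed medium and by -0.16 for used medium over salt. Of all called genes, the share called higher was then 72.8% in place of 52.5% for salt over refed medium, 67.8% in place of 51.8% for used over refed medium, and 28.6% in place of 53.0% for used medium over salt. Under that scaling, too, 50 members rose in used medium over refed medium and 50 over salt. In naive cultures, 13 of the 61 genes had at least 3 times the refed value in salt, beside 13.9% of all tested genes. As these 13 were high in salt as well, the 61 are called here the used-medium genes, without the word only. Relative to naive refed cultures, the median log2 value of the 50 genes was 2.92 in pre-starved used and 3.22 in naive used cultures, 0.42 in pre-starved salt and 0.72 in naive salt cultures, and -0.11 in pre-starved refed cultures.

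**Figure D3:**
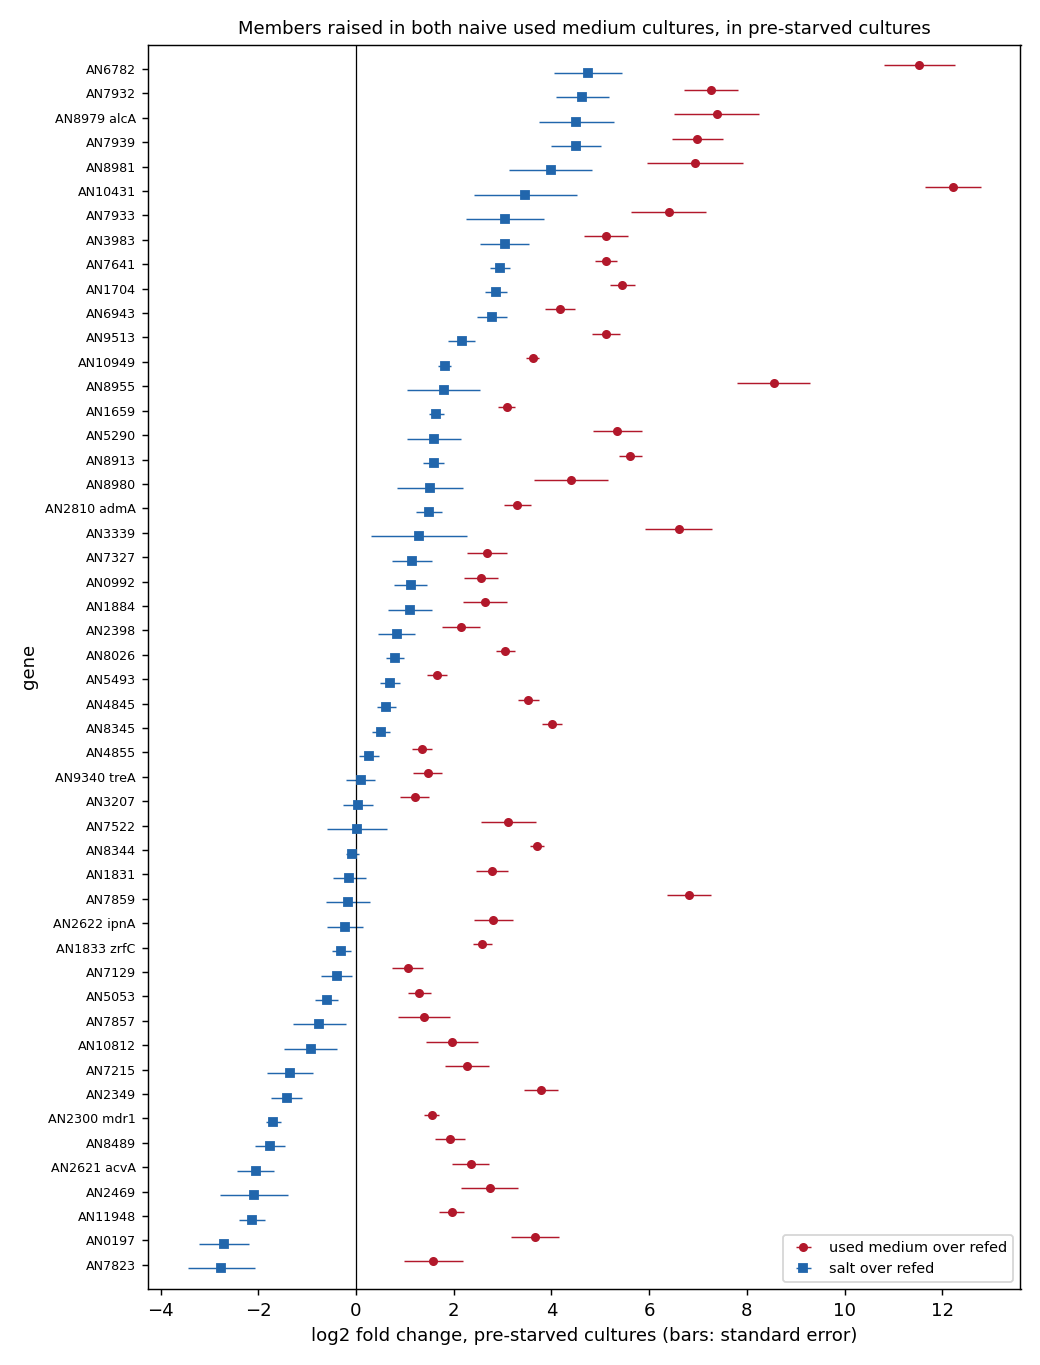
Log2 change in pre-starved cultures for each of the 50 genes, used over refed medium and salt over refed medium, with bars of 1 standard error from edgeR. All 50 used-medium values are above 0, that of AN10431 resting on 1 refed count, and the salt values run between -2.75 and 4.75.

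The alcohol gene alcA (AN8979) had the highest CPM of the 61 in pre-starved used medium. It stood at 38814 and 30274 CPM in pre-starved used cultures A and B, at 8365 and 1064 CPM in pre-starved salt cultures, and at 215 and 200.2 CPM in pre-starved refed cultures. Naive used cultures had 24092 and 9569 CPM, naive salt cultures 1460 and 2601 CPM, and naive refed cultures 415 and 342 CPM. Used-medium cultures were highest and refed cultures lowest within each history, with salt between them and no overlap, and the salt cultures of pre-starved mycelium lay far apart from each other. Starved cultures held 33.1 and 39.3 CPM against 224 and 220.2 CPM in grown cultures, so alcA was low after the long salt step. In pre-starved cultures alcA rose by 7.38 ± 0.87 on the log2 scale over refed medium (SE, n = 2 cultures each, edgeR adjusted p = 6.0e-06) and by 2.87 ± 0.71 over salt (edgeR adjusted p = 0.015). Without pre-starved used culture A the call over salt was lost, at 2.68, as it was with only the 3 pre-starved groups in the fit, at 2.91. Without pre-starved salt culture A the change over salt was 5.02, and without salt culture B it was 2.05. Per kb of exon, alcA ranked 2 among all genes in pre-starved used medium, and it took 4.23% and 3.42% of all counts there.

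Next to alcA on chromosome VII lay a pair of further members. AN8981, AN8980 and AN8979 are neighbours in the RefSeq gene order, with alcR next on the far side of alcA. AN8981 had 3991 and 3140 CPM in pre-starved used cultures, 849 and 69.3 CPM in pre-starved salt cultures, and 30.7 and 27.4 CPM in pre-starved refed cultures. AN8980 had 451 and 467 CPM in pre-starved used cultures, 110.2 and 14.3 CPM in pre-starved salt cultures, and 27.2 and 16.2 CPM in pre-starved refed cultures. In both genes the pre-starved used cultures stood above the pre-starved salt and refed cultures, and pre-starved salt culture A stood above salt culture B, as for alcA. In naive cultures AN8980 had 217 and 95.2 CPM in used medium, 19.9 and 28.9 CPM in salt, and 50.3 and 33.4 CPM in refed medium, so salt was the lowest there, unlike for alcA. AN8981 rose in pre-starved cultures by 6.94 over refed medium and 2.96 over salt, and AN8980 by 4.40 and 2.88, all on the log2 scale. Salt over refed medium gave a log2 change of 3.98 for AN8981, which was called, and 1.52 for AN8980, which was not (edgeR adjusted p = 0.058). The call of AN8981 over salt was lost without pre-starved used culture A (2.77) and with only the 3 pre-starved groups fitted (2.99), and that of AN8980 with only the 3 groups (2.91). Leaving out salt culture A, the lone salt culture B put the changes over salt at 5.69 for AN8981 and 5.005 for AN8980, and the salt change of AN8981 over refed medium at 1.26. Leaving out salt culture B put the changes over salt at 2.07 for AN8981 and 2.06 for AN8980.

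The other listed alcohol genes, alcR and aldA, did not meet the rule, because their naive used-medium values were under 3 times those in salt. In naive cultures alcR reached 15 times the refed value in used medium but only 1.88 times the salt value, and aldA 25.0 and 2.40 times. In pre-starved cultures alcR had 490.1 and 531 CPM in used medium, 247 and 126 CPM in salt, and 28.1 and 23.9 CPM in refed medium. The aldA transcript had 18411 and 14704 CPM in pre-starved used cultures, 5935 and 2500 CPM in pre-starved salt cultures, and 258 and 253 CPM in pre-starved refed cultures. All 3 listed alcohol genes rose in used medium over refed medium, in used medium over salt and in salt over refed medium. The aflR gene (AN7820), the activator of the sterigmatocystin cluster, is joined to the alcA promoter in 1 of the named strains. It had 38.9 and 22.5 CPM in pre-starved used cultures, 7.98 and 6.63 CPM in pre-starved salt cultures, and 0.286 and 0.292 CPM in pre-starved refed cultures. Starved cultures held 28.4 times the grown value of aflR, which kept it out of the 61. Which strain gave these levels is not stated.

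**Figure D4:**
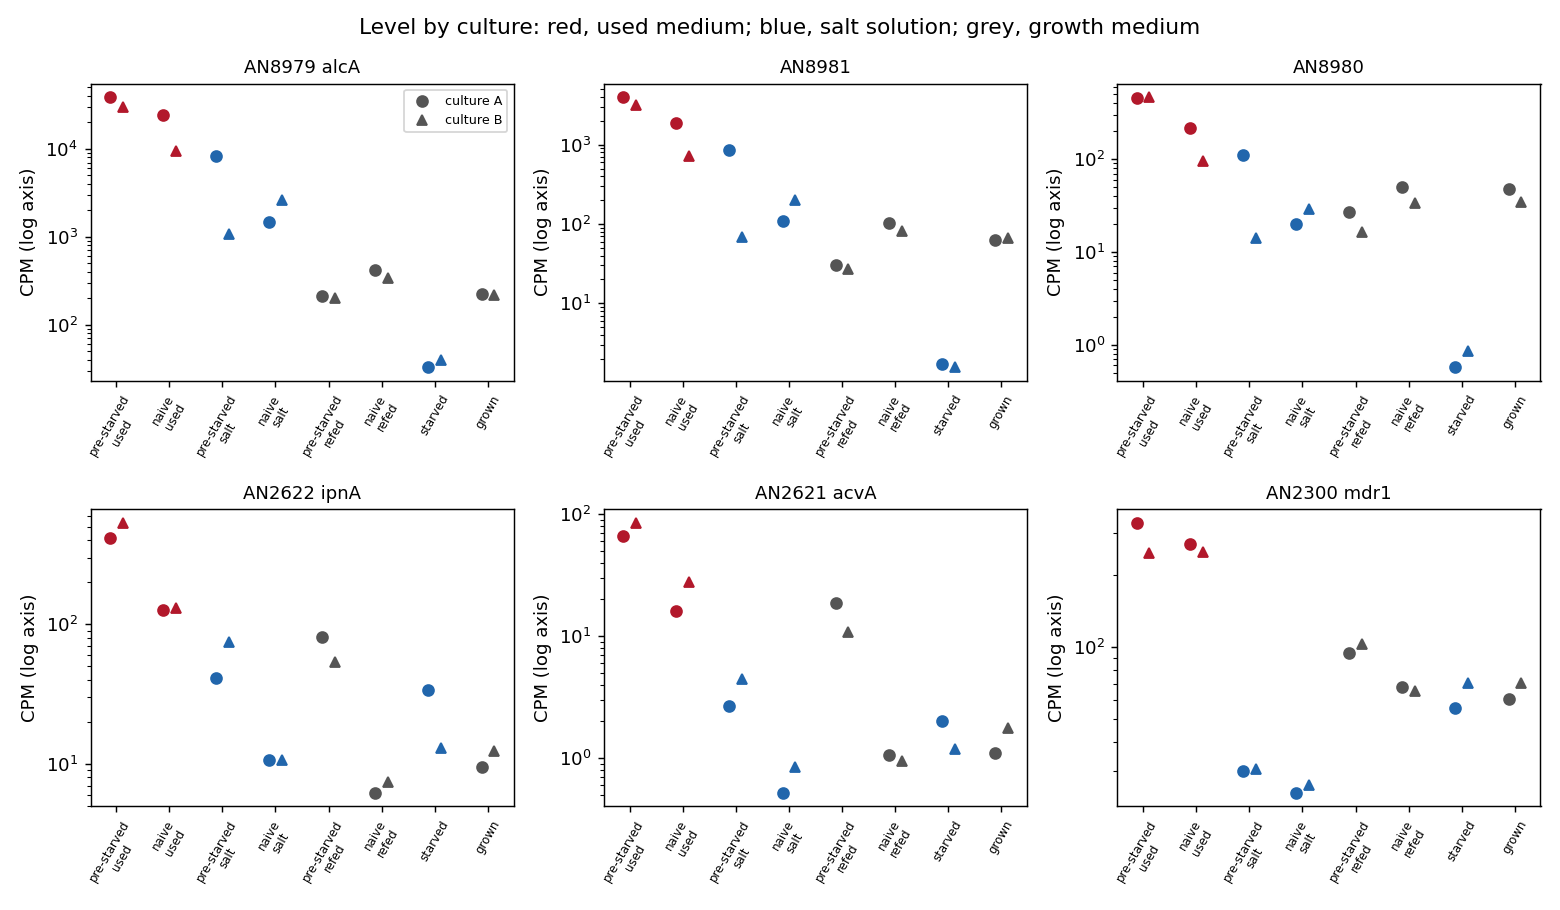
CPM in each culture (log axis) for AN8979 (alcA), AN8981, AN8980, AN2622 (ipnA), AN2621 (acvA) and AN2300 (mdr1), by group. In all 6 genes the pre-starved used cultures lie above the pre-starved salt and refed cultures.

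Penicillin genes formed a second pair of neighbours. Of the 3 structural genes of the cluster, acvA (AN2621) encodes the synthetase that joins the amino acid precursors, ipnA (AN2622) the isopenicillin N synthase, and aatA (AN2623) the acyltransferase of the last step. The ipnA transcript had 416 and 532 CPM in pre-starved used cultures, 41.4 and 74.7 CPM in pre-starved salt cultures, and 80.9 and 54.0 CPM in pre-starved refed cultures. In naive cultures it had 127 and 130 CPM in used medium, 10.6 and 10.6 CPM in salt, and 6.22 and 7.39 CPM in refed medium. Used-medium cultures were the highest in both histories, whereas pre-starved salt and refed cultures overlapped. In pre-starved cultures ipnA rose by 2.81 ± 0.39 over refed medium (log2, SE, edgeR adjusted p = 2.5e-05) and by 3.03 ± 0.39 over salt (edgeR adjusted p = 2.5e-04), and its salt value over refed medium was -0.22, not called.

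The acvA transcript had 66.6 and 84.8 CPM in pre-starved used cultures, 2.68 and 4.46 CPM in pre-starved salt cultures, and 18.9 and 10.8 CPM in pre-starved refed cultures. Here salt was the lowest, with no overlap among the 3 media. It rose by 2.35 ± 0.38 over refed medium and by 4.40 ± 0.42 over salt (log2, SE, edgeR adjusted p = 9.7e-05 and 2.2e-05), and fell by 2.05 in salt over refed medium. Per kb of exon, pre-starved used cultures averaged 347 CPM for ipnA and 6.70 CPM for acvA, whose exons sum to 11.3 kb. The third gene, aatA, was left out by the rule since starved cultures held 10.2 times the grown value. It had 481 and 501 CPM in pre-starved used cultures, 60.7 and 81.3 CPM in pre-starved salt cultures, and 29.3 and 16.5 CPM in pre-starved refed cultures. In pre-starved cultures aatA rose by 4.42 in used medium over refed medium, by 2.79 over salt and by 1.63 in salt over refed medium, on the log2 scale.

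Genes that fell in salt but rose in used medium included a transporter. AN2300, named mdr1 after ATP-driven multidrug efflux pumps, had 330.0 and 246 CPM in pre-starved used cultures, 30.2 and 30.8 CPM in pre-starved salt cultures, and 94.1 and 103 CPM in pre-starved refed cultures. The 3 media did not overlap, with used medium highest and salt lowest. Its log2 changes were 1.55 over refed medium, 3.24 over salt and -1.69 in salt over refed medium, all called. In AN2349 pre-starved used cultures had 629.5 and 830 CPM, pre-starved salt cultures 18.3 and 21.4 CPM, and pre-starved refed cultures 56.5 and 49.6 CPM. That gene rose by 3.78 over refed medium and by 5.20 over salt. Its fall of 1.42 in salt over refed medium was 0.66, not called, when library totals set the scale. The others of the 10 that fell in salt were AN8489, AN0197, AN11948, AN5053, AN7215, AN2469, AN7823 and acvA. AN7823 lies between aflR and stcA in the RefSeq order, inside the sterigmatocystin gene region. It had 3.91 and 8.46 CPM in pre-starved used cultures, 0.218 and 0.382 CPM in pre-starved salt cultures, and 1.32 and 2.81 CPM in pre-starved refed cultures. Its log2 change over refed medium was 1.58 (edgeR adjusted p = 0.029), and the call was lost without used-medium culture B (0.93) or without refed culture A (1.14). Its immediate neighbours moved in opposite directions over refed medium, where AN7822 rose by 6.28 and AN7824 fell by 1.04, and stcA further along fell by 3.40. Over salt AN7822 rose by 2.56, and AN7824 was not called.

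A zinc gene pair on chromosome VII held 2 members around a near miss. In A. fumigatus, zrfC encodes a zinc transporter that works in neutral and alkaline, zinc-poor medium, and aspf2 is its divergently transcribed neighbour. The zrfC gene (AN1833) had 34.7 and 43.1 CPM in pre-starved used cultures, 5.58 and 4.92 CPM in pre-starved salt cultures, and 6.33 and 6.62 CPM in pre-starved refed cultures. It rose by 2.59 over refed medium and by 2.89 over salt on the log2 scale, and salt over refed medium gave -0.30, not called. AN1831, with aspf2 (AN1832) between it and zrfC, had 8.23 and 7.61 CPM in pre-starved used cultures, 0.872 and 1.22 CPM in pre-starved salt cultures, and 1.47 and 0.831 CPM in pre-starved refed cultures. The log2 changes of AN1831 were 2.78 over refed medium and 2.91 over salt, both called. Naive used cultures held 2.56 times the naive refed value of aspf2 and 23.0 times its salt value, so aspf2 missed the rule at refed medium. In pre-starved cultures aspf2 rose by 2.99 over refed medium and by 4.22 over salt, with 50.3 and 58.6 CPM in used medium, 2.54 and 3.29 CPM in salt, and 6.92 and 6.83 CPM in refed medium.

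A pair of hydrolase genes also carried a symbol. AN9340, treA, which encodes acid trehalase, had 1208 and 1089 CPM in pre-starved used cultures, 528 and 357 CPM in pre-starved salt cultures, and 381 and 448 CPM in pre-starved refed cultures. Salt and refed cultures overlapped, and both used-medium cultures lay above them. It rose by 1.47 over refed medium (log2, edgeR adjusted p = 5.9e-04) and by 1.38 over salt (edgeR adjusted p = 0.0069), and the call over salt was lost without pre-starved salt culture B, at 1.12. AN2810, admA, named after ADAM-type metalloproteases, had 30.0 and 36.7 CPM in pre-starved used cultures, 9.09 and 10.1 CPM in pre-starved salt cultures, and 3.45 and 3.32 CPM in pre-starved refed cultures. Its log2 changes were 3.30 over refed medium, 1.80 over salt and 1.5 in salt over refed medium, all called.

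Some genes without a symbol were nearly silent in refed medium. AN6782 had 256 and 871 CPM in pre-starved used cultures, 4.80 and 5.44 CPM in pre-starved salt cultures, and 0.220 and 0.157 CPM in pre-starved refed cultures, the last from 17 counts. Its naive levels were 643 and 1210 CPM in used medium, 14.4 and 19.2 CPM in salt, and 0.049 and 0.071 CPM in refed medium. Used medium stood above salt and salt above refed medium in both histories, and the fitted log2 change in pre-starved cultures was 6.78 over salt and 11.53 over refed medium. Without used-medium culture B the changes of AN6782 were 5.64 and 10.39, and without culture A 7.41 and 12.16. AN10431 had 67.6 and 59.4 CPM in pre-starved used cultures and 0.189 and 0.108 CPM in pre-starved salt cultures. A single count was left for it in pre-starved refed cultures, against 7690 in pre-starved used cultures, so no fold is given over refed medium. Over salt it rose by 8.75 on the log2 scale. AN3339 had 4.57 and 2.34 CPM in pre-starved used cultures, 0.058 and 0.108 CPM in pre-starved salt cultures and 3 counts in pre-starved refed cultures. AN8955 had 58.8 and 259 CPM in pre-starved used cultures, 1.53 and 1.42 CPM in pre-starved salt cultures, and 0.439 and 0.404 CPM in pre-starved refed cultures, which gave log2 changes of 8.55 over refed medium and 6.75 over salt. Without used-medium culture B these were 7.12 and 5.32, and without culture A 9.26 and 7.45.

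Among abundant members, AN1659 had 3604 and 3741 CPM in pre-starved used cultures, 1557 and 1156 CPM in pre-starved salt cultures, and 415 and 452 CPM in pre-starved refed cultures. AN10949 had 725 and 679 CPM in pre-starved used cultures, 215 and 187 CPM in pre-starved salt cultures, and 54.7 and 59.7 CPM in pre-starved refed cultures. Both genes were ordered used medium, salt, refed medium without overlap, and both lay close to the salt threshold in naive cultures. The log2 changes were 3.08 and 1.44 for AN1659 over refed medium and salt, and 3.62 and 1.80 for AN10949. At the low end over refed medium, AN7129 rose by 1.06 and AN3207 by 1.20. The call of AN7129 was lost without used-medium culture A (0.82) or refed culture A (0.71), and that of AN3207 with limma voom (1.13), and AN3207 changed by 0.76 without used-medium culture B. AN7857 had 4.56 and 19.1 CPM in pre-starved used cultures against 4.68 and 4.33 CPM in pre-starved refed cultures, so culture A did not exceed refed medium although the gene was called (log2 change 1.39, edgeR adjusted p = 0.032). Without used-medium culture B its change was 0.02, and without either refed culture the call was lost too (1.45 and 1.34). Over salt, the calls of AN7857 and AN3207 were lost with only the 3 pre-starved groups fitted (2.17 and 1.20). That of AN3207 was also lost with limma voom (1.12). Without used-medium culture B the changes over salt were 0.76 for AN7857 and 0.72 for AN3207. AN7129 changed over salt by 1.21 without used-medium culture A and by 1.21 without salt culture B.

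In the RefSeq gene order 52 of the 61 genes were found, and 13 members lay in pairs with at most 1 gene between them, with 5 pairs directly adjacent. Whether that is many for 52 genes was not tested. Chromosome VII held 14 of the 52 (26.9%), beside 15% of the tested genes. On chromosome II the neighbours AN7932 and AN7933 rose by 7.27 and 6.40 over refed medium and by 2.63 and 3.34 over salt, and AN7939 by 6.99 and 2.48. Salt over refed medium gave 4.64, 3.05 and 4.50 for these 3 genes, so they were high in salt as well, although limma voom did not call AN7933 there. Without pre-starved used culture B, AN7939 changed by 1.53 over salt. The chromosome V neighbours AN8344 and AN8345 rose by 3.71 and 4.01 over refed medium and by 3.79 and 3.50 over salt. AN8344 had 259 and 301 CPM in pre-starved used cultures, 20.1 and 20.4 CPM in pre-starved salt cultures, and 20.0 and 22.8 CPM in pre-starved refed cultures, and its salt change of -0.08 was not called.

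None of the 11 genes of naive used culture B was called in pre-starved cultures. Calls numbered 0 in each of the 3 comparisons by edgeR, DESeq2 and limma voom, and 0 at an unadjusted edgeR p of 0.05, with a median log2 change of -0.52 over refed medium (range -1.55 to 0.86) and -0.68 over salt (range -1.18 to -0.18). All 3 tools estimated the spread with the naive used cultures included, whose wide gap between A and B had set these 11 genes apart. The 0 calls therefore do not show that the 11 genes stayed unchanged in pre-starved cultures. Of the 11, 7 have numbers beginning AN200, and the other 4 are AN5245, AN3228, AN7260 and AN1236. The RefSeq table holds AN3228, AN7260 and AN1236 but not AN5245 or the 7. AN5245 had 2238 and 1338 CPM in pre-starved used cultures, 878 and 3299 CPM in pre-starved salt cultures, and 3822 and 3144 CPM in pre-starved refed cultures. Naive used cultures A and B had 1603 and 22998 CPM of it, naive salt cultures 1047 and 1142 CPM, and naive refed cultures 2074 and 2619.8 CPM, so a single culture set its place among the 61. AN20048 had 126 and 63.0 CPM in pre-starved used cultures, 20.5 and 404 CPM in pre-starved salt cultures, and 174 and 52.0 CPM in pre-starved refed cultures, beside 52.6 and 2589 CPM in naive used cultures. AN3228 stayed between 0.202 and 0.286 times the CPM of AN5245 in all 16 cultures, and AN7260 between 0.126 and 0.196 times. Whether these 3 genes share reads was not tested. Of 7829 genes with at least 5 CPM in a naive used culture, 17 were at least 3-fold higher in culture B than in culture A, and 20 the other way. The table held 23 genes numbered AN200, of which 18 were tested and 13 were at least 3-fold higher in naive used culture B. These 13 were counted with no minimum level, so they are not a part of the 17.

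Pre-starved and naive used cultures also differed in some members, and as naive used cultures chose the genes, these values are a description. At 2-fold or more without overlap, 7 of the 61 genes were higher in pre-starved than in naive used cultures (6.08% of all tested genes) and 16 were higher in naive ones (5.85%). The 7 were alcA, AN8981, AN8980, AN2349, ipnA, acvA and AN0197. In refed medium 10 members were higher in pre-starved cultures (5.56% of all tested genes) and 8 in naive ones (6.84%). Both ipnA and acvA were among the 10, with 80.9 and 54.0 CPM of ipnA in pre-starved refed cultures against 6.22 and 7.39 CPM in naive refed cultures. AN8981 was among the 8, with 30.7 and 27.4 CPM in pre-starved refed cultures against 103 and 81.9 CPM in naive refed cultures. In naive cultures salt held 21 members at least 2-fold above refed medium without overlap (22.7% of all tested genes) and 9 below it (25.4%). In the renewed salt step 8 members were higher in the pre-starved group (7.31%) and 12 were higher in naive ones (5.85%). After 4 h in salt, 19 members were above grown cultures by that measure (21.7%) and 10 were below (20.7%).

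Near the thresholds of the rule, the lowest ratios of naive used over refed medium inside it were 3.07 for AN20017, 3.70 for AN8489 and 3.72 for AN8980, and the highest outside were 2.998 for AN4324, 2.71 for AN5303 and 2.69 for AN7860. Over salt the nearest inside were AN10949 at 3.03, AN1659 at 3.03 and AN3207 at 3.06, and outside AN7880 at 2.97 and AN2395 at 2.87. For starved over grown cultures AN7932 at 3.97 and AN6782 at 3.93 stayed in, and AN8164 at 4.36 fell out. By level, AN20008 at 5.08 stayed in and AN20001 at 4.41 fell out. Failing only the salt criterion were 645 genes, only the refed criterion 25, only the starved limit 52 and only the level 4.

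Genes of other pathways were read from 8 short lists of 47 genes, all tested, of which alcA alone was a member. Beside the counts below, 39.9% of all tested genes were called higher and 37.1% lower in pre-starved used over refed medium. Over salt these shares were 9.02% and 8%, and for salt over refed medium 40.2% and 36.4%. Nitrate assimilation fell in used medium over refed medium in 5 of 5 genes (median log2 change -7.94) and in salt over refed medium in 5 of 5 (-7.37). The nitrate reductase gene niaD had 3.07 and 2.999 CPM in pre-starved used cultures, 5.83 and 6.10 CPM in pre-starved salt cultures, and 2345 and 2502 CPM in pre-starved refed cultures. Over salt, 3 of the 5 nitrate genes were lower in used medium. Of 4 proline use genes 3 rose in used over refed medium, and 3 were lower in used medium than in salt. The proline dehydrogenase gene prnD had 37.5 and 79.1 CPM in pre-starved used cultures, 431 and 269 CPM in pre-starved salt cultures, and 8.30 and 7.16 CPM in pre-starved refed cultures. In pre-starved cultures 6 of 8 acetate use and gluconeogenesis genes were higher in used medium than in salt. Over refed medium 3 were higher and 1 lower, and in salt over refed medium 2 were higher and 5 lower. In naive cultures their ratio of used medium over salt ran between 0.753 for acuD and 2.02 for acuF. Calls of these genes were not recomputed with a culture left out. The isocitrate lyase gene acuD had 660.3 and 239.7 CPM in pre-starved used cultures, 94.1 and 53.1 CPM in pre-starved salt cultures, and 131 and 150.4 CPM in pre-starved refed cultures.

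In the list of pH signalling, 1 of 7 genes was higher and 1 lower in used medium than in salt, and 3 were higher and 1 lower than in refed medium. The pH regulator pacC had 308 and 308 CPM in pre-starved used cultures, 247 and 205 CPM in pre-starved salt cultures, and 270.2 and 286 CPM in pre-starved refed cultures. It was higher in used medium than in salt by 0.45 on the log2 scale (edgeR adjusted p = 0.028), a call lost with library totals (0.29), with only the 3 pre-starved groups (0.49) and without either used-medium culture (0.45 in each case) or salt culture B (0.32), and its change of 0.15 over refed medium was not called. Iron and siderophore genes fell in 6 of 8 cases and rose in 1 over refed medium, and 3 of 8 were higher in used medium than in salt. Oxidative stress genes gave 4 higher and 5 lower of 9 over refed medium, and 1 higher over salt. Such counts stand beside 39.9% of all tested genes called higher and 37.1% lower over refed medium, and 9.02% and 8% over salt. No list was tested against these shares. Of the 3 listed sterigmatocystin genes aflR rose and 2 fell over refed medium, and over salt 1 was higher. Among those that fell, stcU had only 5 counts in pre-starved used cultures, against 189 in pre-starved refed cultures.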

How the data were processed

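The authors deposited raw counts per gene, 1 column per library, and these counts were used. Columns of log2 FPKM and log2 exon length were also deposited by the authors; of these only the exon length was used, for CPM per kb. Per the labels, TruSeq v2 libraries were read as 50-base single ends and mapped to the FGSC A4 genome. Trimmomatic 0.36, BWA, HTSeq, limma and edgeR are named in the submitters' processing notes; neither the annotation release nor a filter is stated in the sources used here. This kit does not mark strand, so overlapping and antisense genes cannot be told apart, nor can reads of near-identical copies be assigned with certainty.

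Each culture was 1 replicate, with its 2 technical libraries added together. Chi-square over degrees of freedom ran between 2.12 and 2.29 for technical libraries and between 44.2 and 272 for the cultures within groups. Library totals ran between 19634577 and 33202687 counts. Genes were kept by filterByExpr (minimum count 10, minimum total 15). In R 4.3.3, edgeR 4.0.16 fitted 1 quasi-likelihood model with TMM scaling and a mean per group to all 16 cultures, with 8 residual and 4.07 prior degrees of freedom and a common biological coefficient of variation of 0.160. Tests were 2-sided, with Benjamini-Hochberg adjustment across all 10022 tested genes in each of 3 comparisons and a threshold of 0.05. Alternatives used DESeq2 1.42.0, limma 3.58.1 voom, other scaling, no filter, fewer groups, a replicate block and left-out cultures. The procedure was tested on simulated data.

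Named members were those with the highest levels, the largest and smallest changes, a symbol, a neighbouring member, or a place near a threshold; some named by that rule are left out. Members, lists and rules were chosen with earlier results of these data known. Of 47 listed genes 18 had the same symbol in RefSeq. Many of the others had only a locus tag there, and prxA was not found, so RefSeq did not check their symbols. The different symbols found there were other names of the same genes or their orthologues. RefSeq gave names and gene order only. Product classes and promoter motifs, which had been planned, were not analysed here.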

Additional observations from a re-analysis of the deposited data

Results flagged for a closer look

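In 3 members, salt cultures lay on opposite sides of refed cultures in the 2 histories, with both cultures of each group on the same side. The share of all tested genes with such an order is not given, so the 3 cannot be set against it. The log2 ratio of salt over refed medium (mean CPM plus 0.5) was -1.86 in pre-starved and 0.797 in naive cultures for AN11948. It was -0.905 in pre-starved and 0.75 in naive cultures for AN2469. For AN7859 it was -0.0917 in pre-starved and 0.415 in naive cultures. Salt over refed medium was not called for AN7859 in pre-starved cultures (edgeR adjusted p = 0.759). The difference between the histories was not tested in these 3 genes, and groups of 2 cultures allow no check for a single outlying culture.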

How the results depend on the processing

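The count of members that rose in used medium was 47 to 50 over refed medium in all alternatives, and 42 to 50 over salt, with 42 when only the 3 pre-starved groups were fitted. In salt over refed medium, limma voom called 15 higher and library totals 6 lower; leaving out 1 culture gave 18 to 22 higher and 8 to 10 lower. The rule gave 117 genes at a 2-fold threshold, 30 at a 5-fold threshold and 113 without the starved limit. The correlation of B minus A between pre-starved groups was -0.33 for used and refed, 0.50 for used and salt, and -0.35 for salt and refed. Replicate letters thus did not pair the cultures alike across groups. A fit with the letter as replicate block gave 50, 50, 25 higher and 10 lower. That block is a single shift shared by all groups, so it cannot take up a pairing of used and salt cultures alone, which was not tested. Among 1030 recomputed log2 changes of named genes, 960 kept sign and call, 48 lost the call, 4 gained it and 18 changed sign; the cause was not tested. With library totals, used over refed medium was 0.071 for AN20049, and salt over refed medium was 0.46 for AN1833, 0.69 for AN8344 and 0.55 for AN2622; with voom, used medium over salt was 0.006 for AN5245. Leaving out 1 culture, used medium over salt ran between -0.88 and 1.03 for AN5245, -0.77 and 0.40 for AN20049, -4.74 and 0.47 for AN20008, -1.20 and 0.95 for AN3228, -1.26 and 0.92 for AN7260, and -1.47 and 0.50 for AN20019. Salt over refed medium then ran between -0.21 and 0.35 for AN9340, -0.16 and 0.023 for AN8344, -0.70 and 0.15 for AN2622, and -0.60 and 2.35 for AN8980. In none of these was the reported change called. A left-out culture leaves a group with 1 culture, assumed to vary like the others. Depth limits AN10431 and AN3339, with 1 and 3 counts in pre-starved refed cultures.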
